A study of Mus musculus with 64 samples.

Results

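The 31 genes described here mark glutamatergic projection neurons of the cortex or single cortical layers, and were followed through RNA-seq of the nucleus accumbens (NAc) and prefrontal cortex (PFCx) of the mouse. They were chosen by name for this role, and a gene belonged to the group where its symbol was the gene name of a row in the isoform tables. All 31 were found, each under 1 gene identifier, among 46785 genes in the tables, and all 31 were among the 37034 genes tested. Each gene's level is the sum of the FPKM values of its annotated transcripts, a read count per kilobase of transcript corrected for library size, so that levels of different genes can be compared per length.

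Adult male C57BL/6N mice received a single intraperitoneal injection of saline or of 1 of 6 drugs, and tissue was taken 2 h later. The doses in mg/kg were 20 for ketamine and mianserin, 16 for venlafaxine, 2 for methamphetamine, 1 for haloperidol and 0.5 for risperidone. Haloperidol and risperidone were dissolved in saline with a drop of HCl, the other drugs in saline. There were 4 libraries per drug in each tissue, and 8 saline libraries per tissue, labelled as 4 of saline I and 4 of saline II, 64 libraries in all. The PFCx sample held the cingulate, prelimbic and infralimbic areas and part of the dorsal peduncular area, and both tissues were cut out with needles under a binocular microscope. Whether the NAc and PFCx of one animal were both sequenced, and whether animals were pooled, is not stated in the sources used here.

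Projection neurons are the excitatory cells of the cortex. They release glutamate, which the vesicular glutamate transporters load into synaptic vesicles, and they are born in the dorsal telencephalon (the pallium) under transcription factors such as Tbr1, Emx1 and the Neurod family. Each layer of the cortex has its own set of transcription factors and signalling genes, whereas the NAc is part of the striatum and is built mainly from GABAergic medium spiny neurons, which share several transcription factors with the deep cortical layers.

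Depth was similar in the tissues, at 1.52 to 3.26 gigabases of aligned sequence per library, estimated from the coverage and FPKM columns. In the NAc the number of transcripts above 0 split the libraries into sample set I (saline I, haloperidol, risperidone and methamphetamine, 85287 to 87827 transcripts) and sample set II (saline II, mianserin, venlafaxine and ketamine, 107099 to 110556 transcripts). All 32 PFCx libraries lay between 108556 and 110852. The labels name these sets only as the I and II of saline, so the drug results below are given against all 8 saline libraries and against the 4 of the own set. The set of each drug was read from its NAc libraries and carried over to the PFCx. The PFCx numbers show no such split, so the own-set comparisons there rest on this step. The tissue labels held for the defining genes of the striatum. All 18 genes of a medium spiny neuron list (among them Drd1, Drd2 and Ppp1r1b) were lower in the PFCx, with none of the 18 at 0 in every library, and their summed FPKM was 914 to 1206 in the NAc saline libraries and 85.9 to 122 in 7 of the PFCx saline libraries. The PFCx saline II replicate 4 library stood apart at 170, or 15.9% of the mean NAc saline level, against 8.04% to 11.5% in the other 7 (risperidone replicate 3 was the highest PFCx library, at 16.1%). Results of the tissue comparison that rest on saline were recomputed without it.

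The first comparison asked how the members differed between the PFCx and the NAc after saline (8 libraries each). In the PFCx, 19 of the 31 members were higher and 11 were lower at an adjusted p under 0.05 (limma on log2(FPKM + 1), Benjamini-Hochberg over all genes tested), against 26.8% of all genes higher and 7.16% lower. With a difference of at least 1 on the log2 scale in addition, 13 members were higher and 4 were lower (all genes tested: 1.43% higher, 0.716% lower). The median difference of the members was 0.81 on the log2 scale and that of all genes tested was 0.10. Every PFCx library lay above every NAc library for 16 members and below for 8 (all genes tested: 5.67% and 2.83%). The NAc side of these shares pools saline I and saline II, which differed in the number of transcripts above 0. Within the NAc, 12.9% of all genes were higher in saline II than in saline I and 4.37% were lower. The part of this split in the tissue shares was not tested. In bulk tissue, fewer cells of a type and less RNA per cell cannot be told apart.

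The direction differed between the roles of the members. Both vesicular glutamate transporters, all 5 pallial transcription factors and all 5 synaptic and signalling genes were higher in the PFCx, as were 4 of 7 upper-layer and layer 4 genes and 3 of 7 layer 5 genes. All 5 layer 6 and subplate genes were lower there. The name of the group therefore did not hold for each member in these samples: Cux1, Calb1, Bcl11b, Crym, Pcp4, Rspo1, Foxp2, Tle4, Cplx3, Nxph4 and Syt6 had more RNA in the NAc than in the PFCx. Without the PFCx saline II replicate 4 library the same comparison again gave 13 members higher and 4 lower by at least 1 on the log2 scale.

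**Figure D1:**
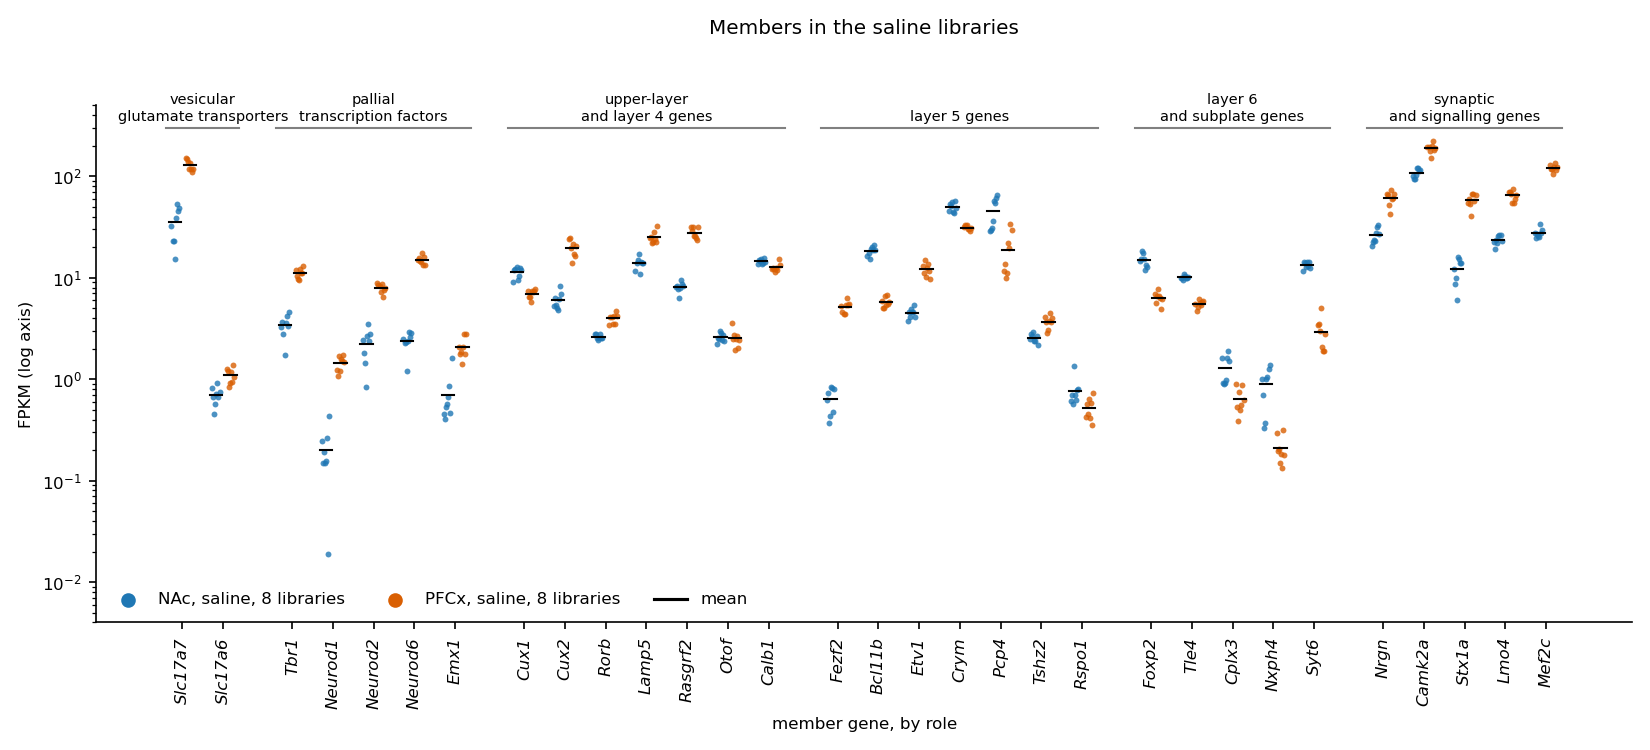
FPKM on a log axis of the 31 members in the 8 NAc saline libraries (blue) and 8 PFCx saline libraries (orange), grouped by role, with 1 point per library and a bar at the mean. The orange points lie above the blue ones for Slc17a7, Tbr1, Neurod1, Neurod2, Neurod6 and the synaptic genes and below them for the layer 6 and subplate genes, while Slc17a6 and Emx1 overlap.

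RefSeq promoters (GRCm38.p6) were found for 25 of the 31 members. Otof, Crym, Calb1, Nxph4, Foxp2 and Camk2a had none. The bases before the start are shown for the 2 members with the largest differences in each direction among the 13 with at least 190 of the 250 bases outside the annotated gene, and for Neurod2, the member called after a drug. They are written 5′ to 3′ on the strand of the gene, and capitals mark CANNTG, the E-box letters that basic helix-loop-helix factors such as the Neurod proteins recognise.
Neurod6, chr6:55681264-55681513, minus strand: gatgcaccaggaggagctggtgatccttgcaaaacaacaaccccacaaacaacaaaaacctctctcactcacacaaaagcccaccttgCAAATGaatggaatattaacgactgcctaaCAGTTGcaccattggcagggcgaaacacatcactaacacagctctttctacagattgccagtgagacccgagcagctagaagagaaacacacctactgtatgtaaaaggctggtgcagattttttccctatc
Stx1a, chr5:135023232-135023481, plus strand: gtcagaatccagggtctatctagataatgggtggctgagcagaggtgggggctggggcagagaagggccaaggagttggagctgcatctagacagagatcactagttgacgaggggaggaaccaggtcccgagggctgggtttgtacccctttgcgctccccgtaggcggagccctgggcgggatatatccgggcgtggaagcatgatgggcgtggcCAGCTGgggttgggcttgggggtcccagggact
Syt6, chr3:103575032-103575230, plus strand: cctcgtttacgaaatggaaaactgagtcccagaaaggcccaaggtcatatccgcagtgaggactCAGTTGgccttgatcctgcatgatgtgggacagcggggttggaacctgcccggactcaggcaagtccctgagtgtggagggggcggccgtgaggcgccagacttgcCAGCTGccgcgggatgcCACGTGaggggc
Pcp4, chr16:96467356-96467605, plus strand: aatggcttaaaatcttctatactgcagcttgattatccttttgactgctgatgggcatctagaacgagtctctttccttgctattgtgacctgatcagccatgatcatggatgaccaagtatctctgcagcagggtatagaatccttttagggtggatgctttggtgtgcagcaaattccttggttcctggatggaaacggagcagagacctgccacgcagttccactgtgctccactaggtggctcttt
Neurod2, chr11:98329649-98329895, minus strand: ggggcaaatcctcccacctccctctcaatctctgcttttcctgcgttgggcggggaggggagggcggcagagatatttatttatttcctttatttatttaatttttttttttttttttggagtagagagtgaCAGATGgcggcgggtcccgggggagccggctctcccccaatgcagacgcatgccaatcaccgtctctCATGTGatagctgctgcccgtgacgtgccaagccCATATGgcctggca
The Neurod6 stretch held 2 matches, that of Stx1a 1, those of Syt6 and Neurod2 3 each, and that of Pcp4 0. The CANNTG pattern reads the same on both strands and includes the shorter choices given next. In the 250 bases before the start it occurred in 17 of the 25 members and in 66.2% of all 32851 RefSeq promoters, so the members were close to the background. CAGATG, searched on both strands, occurred in 4 members (Neurod2, Cux2, Nrgn and Mef2c) and in 14.4% of all promoters. CAGCTG occurred in 3 members and in 13.0% of all promoters, and CACGTG in 4 and in 6.02%. A match describes the letters and is no binding site.

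Slc17a7 encodes VGLUT1, the main vesicular glutamate transporter of cortical neurons (chr7:45163949-45176142, plus strand, GENCODE vM21 on GRCm38). Its FPKM in the 8 PFCx saline libraries was 111 at the lowest, 127 at the median and 152 at the highest, against 15.4, 35.5 and 53.6 in the NAc. The tissues did not overlap, and the NAc libraries spread over a wider range relative to their mean (35.0 ± 13.8, SD, n = 8) than the PFCx libraries (130 ± 15.7, SD, n = 8). The difference was 1.95 on the log2 scale (SE 0.208, limma adjusted p = 1.54e-06). It was 1.35 within saline I and 2.55 within saline II, and the difference between the sets passed the test (1.20, SE 0.236, limma adjusted p = 0.0131, where 3.77% of all genes passed). Slc17a6 encodes VGLUT2, the transporter of thalamic and other subcortical glutamate neurons, and was near 1 FPKM in the PFCx (1.10 ± 0.193, SD, n = 8) and 0.697 ± 0.146 (SD, n = 8) in the NAc. The log2 difference of 0.30 passed the test (limma adjusted p = 0.00218), although the ranges overlapped.

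Among the pallial transcription factors, Neurod6 was the most abundant in the PFCx and differed most on the log2(FPKM + 1) scale, whereas the low-level Neurod1 had the highest ratio of means (7.15). Neurod6, a bHLH factor of maturing pyramidal neurons, lies at chr6:55677822-55681263 on the minus strand and its upstream bases are printed above. Its FPKM was 13.4, 14.8 and 17.6 (lowest, median and highest of 8) in the PFCx and 1.21, 2.42 and 2.90 in the NAc. No NAc library came near the PFCx range, and the lowest NAc value, in saline II replicate 4, lay apart from the other 7 (2.25 to 2.90). The difference was 2.26 on the log2 scale (SE 0.0974, limma adjusted p = 2.07e-11), a ratio of means of 6.30.

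Neurod2, a bHLH factor of postmitotic excitatory neurons (chr11:98325415-98329648, minus strand), had an FPKM of 6.45, 8.14 and 8.83 in the PFCx and 0.841, 2.39 and 3.49 in the NAc. The ranges were separate, with a difference of 1.51 on the log2 scale (SE 0.142, limma adjusted p = 3.40e-07). Tbr1, the T-box factor of early-born deep-layer neurons, differed by 1.48 (PFCx mean 11.1 FPKM, NAc mean 3.39), and Neurod1 by 1.02 (1.44 and 0.201). Emx1, a homeobox factor of the dorsal telencephalon, differed by 0.87 (2.07 and 0.695). The Emx1 ranges met because 1 NAc library reached 1.63, above the lowest PFCx value of 1.41.

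The upper-layer genes did not move as 1 group. Rasgrf2, a Ras exchange factor of layer 2/3 neurons, was the most abundant in the PFCx and the most different (chr13:91880400-92131656, minus strand). Its FPKM was 23.3, 27.2 and 31.7 in the PFCx and 6.36, 8.11 and 9.48 in the NAc. The ranges lay far apart, with a difference of 1.66 on the log2 scale (SE 0.0781, limma adjusted p = 5.80e-11). The homeobox gene Cux2 followed at 1.55 (19.7 FPKM in the PFCx and 6.03 in the NAc), then Lamp5 at 0.81 (25.1 and 13.9) and the layer 4 nuclear receptor Rorb at 0.45 (3.98 and 2.63). Otof, an otoferlin gene, was alike in mean, at 2.54 FPKM in the PFCx and 2.59 in the NAc, a difference of -0.03 (SE 0.0780, limma adjusted p = 0.800) with overlapping ranges.

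Cux1 and Calb1 were lower in the PFCx. For Cux1, the homeobox paralogue of Cux2, the FPKM was 5.76, 7.28 and 7.71 in the PFCx and 9.02, 11.9 and 12.6 in the NAc, without overlap. The difference of -0.61 (SE 0.0744, limma adjusted p = 6.95e-06) had the opposite sign to that of Cux2. Calb1, which encodes the calcium buffer calbindin, had an FPKM of 11.3, 12.4 and 15.3 in the PFCx and 13.6, 14.5 and 15.6 in the NAc. The ranges overlapped, and the difference of -0.18 (SE 0.0525, limma adjusted p = 0.0143) was the smallest that passed among the members. Within saline I alone it did not pass (-0.11, adjusted p = 0.321).

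Layer 5 held the members with the sharpest contrast in direction. Fezf2, the zinc finger factor that specifies subcerebral projection neurons (chr14:12342094-12348189, minus strand), had an FPKM of 4.38, 5.31 and 6.26 in the PFCx and 0.370, 0.683 and 0.828 in the NAc. The tissues were widely apart, with a ratio of means of 8.05, the highest of the 31 members, and a difference of 1.91 on the log2 scale (SE 0.0793, limma adjusted p = 1.33e-11). Bcl11b encodes CTIP2, a factor that acts downstream of Fezf2 in the cortex and is also a defining factor of medium spiny neurons (chr12:107910403-108003602, minus strand). Its FPKM was 4.998, 5.65 and 6.74 in the PFCx and 15.4, 18.8 and 21.1 in the NAc. Here the NAc libraries were all above the PFCx libraries, and the difference was -1.53 (SE 0.0694, limma adjusted p = 3.94e-11).

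The ETS factor Etv1 was higher in the PFCx, with an FPKM of 9.61, 12.1 and 14.8 against 3.73, 4.56 and 5.34 in the NAc, a difference of 1.24 (SE 0.0821, limma adjusted p = 3.88e-09). Its ranges were separate. Tshz2, a teashirt zinc finger gene, was higher by 0.39 (3.69 and 2.56 FPKM). It did not pass within saline II alone (0.24, adjusted p = 0.128).

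Crym, the thyroid hormone binding protein mu-crystallin, had the highest PFCx level of the layer 5 members, at 28.9, 31.3 and 32.7 FPKM, and a still higher one in the NAc, at 43.7, 49.6 and 57.6. The ranges were separate, with a difference of -0.66 (SE 0.0592, limma adjusted p = 1.96e-07). Pcp4, a small regulator of calmodulin (chr16:96467606-96525793, plus strand), had an FPKM of 9.86, 16.7 and 33.6 in the PFCx and 28.8, 45.7 and 65.9 in the NAc. These ranges overlapped, and the difference was -1.28 (SE 0.266, limma adjusted p = 0.00170). Within saline I it was -1.18 and within saline II -1.37, since both tissues were lower in saline II. Rspo1, a secreted activator of Wnt signalling, was low in both tissues, at 0.354, 0.508 and 0.723 FPKM in the PFCx and 0.570, 0.701 and 1.35 in the NAc. The ranges overlapped, and the difference of -0.21 (SE 0.0766, limma adjusted p = 0.0425) lost its call in 9 of the 16 fits that left out 1 library and within each saline set.

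All 5 layer 6 and subplate genes were lower in the PFCx than in the NAc, and no PFCx library overlapped the NAc range for any of them. Syt6, a synaptotagmin (chr3:103575231-103645569, plus strand), had an FPKM of 1.91, 2.89 and 4.998 in the PFCx and 11.7, 13.6 and 14.3 in the NAc. The PFCx values were spread, with the highest in the saline II replicate 4 library that had the most striatal marker signal. The difference was -1.90 (SE 0.126, limma adjusted p = 4.10e-09), and -1.996 without that library. It was -2.20 within saline I and -1.60 within saline II.

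Foxp2, the forkhead factor of layer 6 corticothalamic neurons that medium spiny neurons also carry, had an FPKM of 4.96, 6.48 and 7.73 in the PFCx and 12.002, 14.9 and 18.1 in the NAc. The difference was -1.10 (SE 0.0878, limma adjusted p = 4.38e-08). Tle4, a Groucho corepressor of corticothalamic neurons, had an FPKM of 4.68, 5.55 and 6.22 in the PFCx and 9.40, 10.03 and 10.8 in the NAc. In the NAc the spread was small for Tle4 (10.1 ± 0.396, SD, n = 8) and wider for Foxp2 (14.8 ± 2.18, SD, n = 8). The Tle4 difference was -0.77 (SE 0.0476, limma adjusted p = 1.78e-09).

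Cplx3, a complexin of subplate neurons, had an FPKM of 0.390, 0.590 and 0.891 in the PFCx and 0.904, 1.25 and 1.88 in the NAc. Nxph4, a neurexophilin of the subplate, had an FPKM of 0.133, 0.190 and 0.316 in the PFCx and 0.329, 1.00 and 1.37 in the NAc. Both were at or below 1 FPKM in the PFCx, and the edges of their ranges nearly touched. The differences were -0.47 for Cplx3 (SE 0.101, limma adjusted p = 0.00200) and -0.62 for Nxph4 (SE 0.109, limma adjusted p = 0.000406). Within saline II alone neither passed (-0.35 with adjusted p = 0.108 and -0.38 with adjusted p = 0.0704).

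The synaptic and signalling genes were all higher in the PFCx, without overlap. Camk2a, the alpha subunit of the calcium and calmodulin dependent kinase II and the most abundant of the 31 members in both tissues, had an FPKM of 153, 193 and 225 in the PFCx and 93.7, 107 and 120 in the NAc. The difference was 0.81 (SE 0.0748, limma adjusted p = 2.49e-07), the smallest of this group. Stx1a, the plasma membrane SNARE protein syntaxin 1A (chr5:135023482-135051100, plus strand), differed most, with an FPKM of 40.6, 58.4 and 67.4 in the PFCx and 6.09, 13.1 and 16.1 in the NAc. Its difference was 2.22 (SE 0.164, limma adjusted p = 1.70e-08). Mef2c, an activity-dependent transcription factor, differed by 2.09 (121 ± 9.46 and 27.6 ± 2.82 FPKM, SD, n = 8 each). Lmo4, a LIM-only cofactor, differed by 1.41 (64.7 and 23.6), and Nrgn, the postsynaptic calmodulin binder neurogranin, by 1.19 (60.9 and 26.1).

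In the 8 against 8 saline libraries the two-sided exact permutation test gave 0.000155, the smallest p that these libraries allow, for the 24 members without overlap. Of the other 7, it gave 0.000311 for Slc17a6, Emx1 and Tshz2, 0.00140 for Pcp4, 0.00373 for Calb1, 0.00761 for Rspo1 and 0.742 for Otof.

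**Figure D2:**
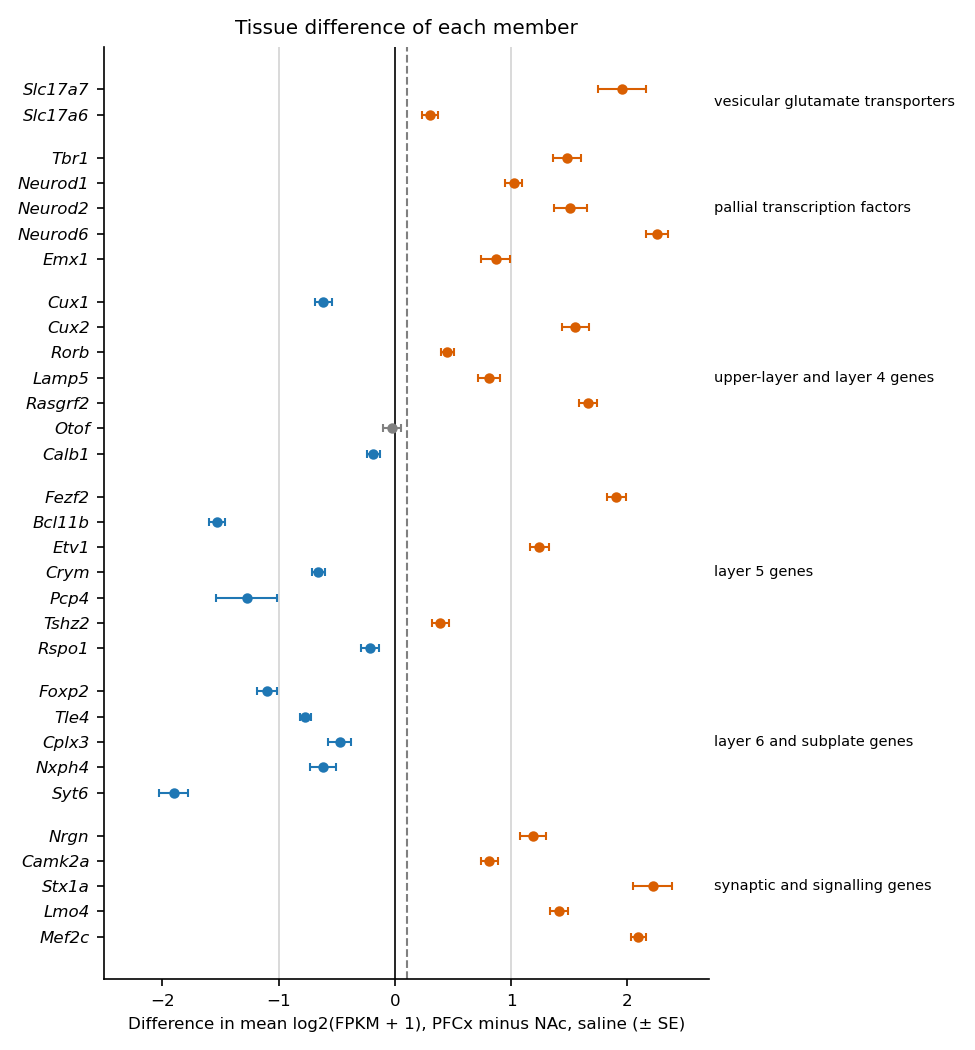
Difference in mean log2(FPKM + 1), PFCx minus NAc, of each member over 8 saline libraries per tissue, with bars of ± SE. Orange points passed as higher and blue points as lower at an adjusted p under 0.05, the grey point is Otof, the dashed line is the median of all genes tested (0.10) and the light lines mark a difference of 1. Layer 6 and subplate genes lie left of 0, and the transporters, pallial factors and synaptic genes lie right of it.

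A list of 24 other genes of cortical projection neurons gave a similar picture of mixed directions. Of these, 16 were higher in the PFCx and 5 were lower, with a median difference of 0.65 on the log2 scale. Bhlhe22, a bHLH factor, was higher by 1.84 (4.60 and 0.566 FPKM) and Ldb2, a LIM domain binding cofactor, by 1.78 (25.7 and 6.80). Lmo3 was lower (-0.95, 16.1 and 31.99 FPKM), and Nr4a2, a nuclear receptor of the claustrum and layer 6, was lower as well (-0.81, 1.75 and 3.89 FPKM). Oligodendrocyte genes differed too: all 8 of that list were lower in the PFCx, with a median difference of -1.83. Their part in the members' differences was not tested.

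The tables resolve 159 tested transcripts of the 31 members, of which 96 reached 1 FPKM on average in either tissue. Of those 96, 55 were higher and 19 were lower in the PFCx at an adjusted p under 0.05 (all transcripts tested: 9.46% higher and 4.27% lower). The transcripts tested include all with a mean of at least 0.1 FPKM in either tissue, many of them under 1 FPKM. The 2 sets of shares are therefore not like for like. Transcripts of one gene share reads, so the split between them is less certain than the sum. The NAc side of these calls pools saline I and saline II. NAc libraries of set I had 85287 to 87827 transcripts above 0 and those of set II 107099 to 110556. The part of this split in the transcript calls was not tested. The main Camk2a transcript, ENSMUST00000102888, rose from 86.3 FPKM in the NAc to 141 in the PFCx (difference 0.71), while ENSMUST00000025519 rose from 2.86 to 13.8 (difference 1.82). The main Mef2c transcript, ENSMUST00000197146, had 10.3 and 51.6 FPKM, and the main Stx1a transcript, ENSMUST00000005509, had 4.77 and 19.8. Both kept the direction of their gene.

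Foxp2 was the only member with transcripts called in opposite directions. ENSMUST00000115477, a protein-coding transcript, had 2.22 FPKM in the NAc and 0.465 in the PFCx (difference -1.14, limma adjusted p = 6.37e-07), and 7 of the 8 Foxp2 transcripts at 1 FPKM or more were lower in the PFCx. The eighth, ENSMUST00000154448, is annotated at 352 bases and had 1.32 and 1.80 FPKM, a difference of 0.32 that did not pass (limma adjusted p = 0.184). The transcript called as higher in the PFCx, ENSMUST00000152563, had 0.0531 FPKM in the NAc and 0.367 in the PFCx (difference 0.36, limma adjusted p = 0.0354). For Lamp5 the main transcript of the NAc, ENSMUST00000057503, had 6.07 and 7.83 FPKM and did not pass (limma adjusted p = 0.467), whereas ENSMUST00000123436, the main one of the PFCx, had 4.16 and 9.22 (difference 1.04). Of the 6 Cux1 transcripts at 1 FPKM or more, ENSMUST00000004097 and ENSMUST00000177305 were lower in the PFCx and the others did not pass.

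The second comparison took the level of each member in every NAc library as a share of its mean PFCx saline level. Cortical tissue in the NAc samples and RNA of the NAc's own cells cannot be told apart in this share. Its median over all NAc libraries was 317% for Bcl11b and 449% for Syt6. The lowest median shares over the 32 NAc libraries belonged to Fezf2, at 6.13% to 14.3% in the 16 libraries of set II and 7.87% to 21.1% in the 16 of set I, to Neurod6, at 5.79% to 23.3% and 9.14% to 22.4%, and to Neurod1, at 10.4% to 28.2% and 1.32% to 29.9%. Over the 8 NAc saline libraries alone the median was 12.1% for Neurod1, 13.3% for Fezf2 and 16.2% for Neurod6. Slc17a7 ranged from 11.9% to 45.2% in set II (median 22.1%) and from 20.7% to 50.1% in set I (median 36.4%). The share thus differed several-fold between members as well as between libraries. Rasgrf2 lay at 21.6% to 41.0% over both sets and Mef2c at 17.7% to 30.8%.

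Across the NAc libraries of each set, Slc17a7 rose and fell with several members, given here as a description. Pearson's r with Slc17a7 on the log2 scale was above 0.5 in both sets for 9 of the other 30 members, and below -0.5 in both for 6. The share of all genes with such an r is not given, so the counts cannot be read as particular to the members. Tbr1 reached 0.81 in set I and 0.93 in set II (n = 16 each, Spearman's rho 0.82 and 0.89), Neurod2 reached 0.88 and 0.91 (rho 0.82 and 0.86), and Stx1a 0.75 and 0.92 (rho 0.64 and 0.93). These libraries share tissue cuts and sample sets, and the values stayed between 0.60 and 0.90 when the 2 libraries farthest from the median Slc17a7 were left out. After the mean of each group was taken off, r was 0.71 and 0.86 for Tbr1, 0.87 and 0.93 for Neurod2, and 0.77 and 0.87 for Stx1a. Among the others of the 9, it stayed above 0.5 in both sets for Neurod6, Rorb, Cplx3 and Nxph4. In set II it fell from 0.53 to 0.06 for Mef2c and from 0.59 to 0.28 for Slc17a6.

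Cplx3 and Nxph4, which were higher in the NAc than in the PFCx, also moved with Slc17a7 inside the NAc. The r was 0.64 and 0.94 for Cplx3 (rho 0.61 and 0.92) and 0.77 and 0.64 for Nxph4 (rho 0.66 and 0.66). The other 3 layer 6 genes moved the opposite way, at -0.83 and -0.66 for Foxp2 (rho -0.91 and -0.64), -0.53 and -0.64 for Tle4 (rho -0.51 and -0.56), and -0.52 and -0.52 for Syt6 (rho -0.41 and -0.43). With group means taken off, r was -0.85 and -0.71 for Foxp2, -0.52 and -0.67 for Tle4, and -0.46 and -0.37 for Syt6. This direction was not particular to layer 6. Tshz2 (-0.77 and -0.65), Otof (-0.53 and -0.68) and Bcl11b (-0.57 and -0.62) were also below -0.5 in both sets. Without the 2 libraries farthest from the median Slc17a7 the values were 0.57 and 0.92 for Cplx3, 0.68 and 0.63 for Nxph4, -0.86 and -0.42 for Foxp2, -0.40 and -0.32 for Tle4 and -0.36 and -0.38 for Syt6, so the relations of Tle4 and Syt6, and that of Foxp2 in set II, rest in part on those libraries. The summed medium spiny neuron list gave -0.68 and -0.79 (rho -0.74 and -0.73). Fezf2 gave 0.41 and 0.33, Cux2 0.31 and -0.08, and Rasgrf2 -0.09 and 0.24, so that not all members with low NAc levels moved together. The oligodendrocyte list gave -0.09 in set I and 0.83 in set II. The part of the dissection in these relations was not tested.

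**Figure D3:**
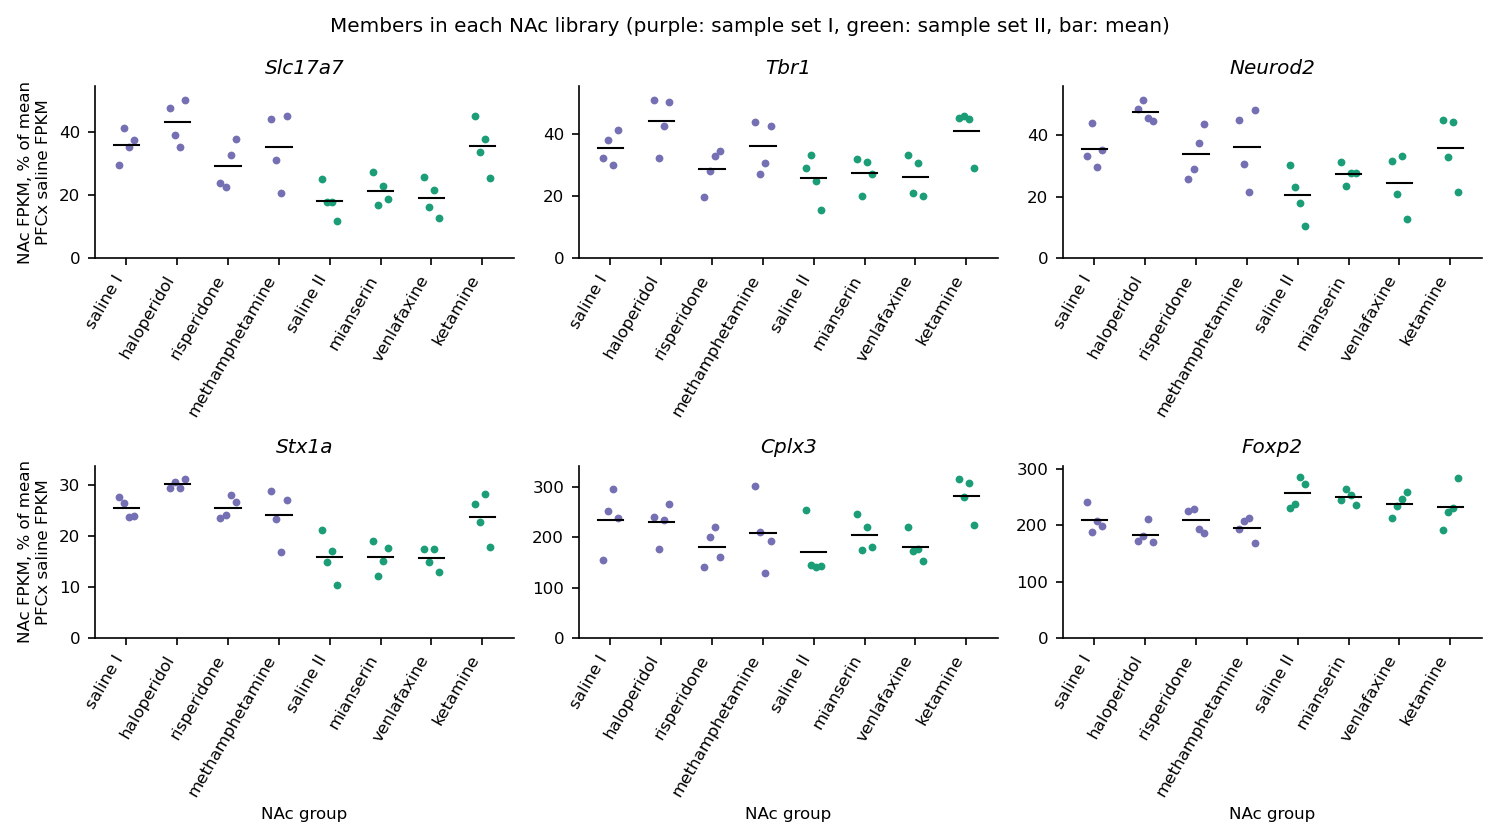
FPKM of 6 members in each of the 32 NAc libraries as a percentage of the mean of the 8 PFCx saline libraries, by group, with 1 point per library, purple for sample set I, green for sample set II and a bar at the mean. Slc17a7, Tbr1, Neurod2 and Stx1a all have their highest mean after haloperidol, and the mean of Slc17a7 is lowest in saline II (11.9% to 25.2%), and Cplx3 and Foxp2 lie above 100%.

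The saline sets themselves differed in several members. In the NAc, 5 members were lower in saline II than in saline I (all genes tested: 4.37% lower and 12.9% higher). Slc17a7 had 38.3, 53.6, 45.7 and 48.5 FPKM in the 4 saline I libraries and 32.6, 23.2, 22.9 and 15.4 in the 4 saline II libraries. The sets did not overlap (difference -0.99, SE 0.209, limma adjusted p = 0.0213). Pcp4 fell from 59.9 ± 4.74 to 31.4 ± 3.45 FPKM (SD, n = 4 each, limma adjusted p = 0.00223), and Nrgn, Camk2a and Stx1a differed by -0.38, -0.25 and -0.66. In the PFCx, Pcp4 was lower in saline II (all genes tested: 3.57%) and Syt6 was higher (3%). Pcp4 had 22.2, 19.8, 33.6 and 29.7 FPKM in saline I and 11.5, 13.7, 9.86 and 11.2 in saline II, with no overlap (difference -1.10, SE 0.169, limma adjusted p = 0.00678). Syt6 had 2.06, 1.91, 1.91 and 2.80 FPKM in saline I and 3.40, 3.50, 2.97 and 4.998 in saline II, also with no overlap (difference 0.56, SE 0.140, limma adjusted p = 0.0491).

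The third comparison asked whether any drug changed the members in the PFCx within 2 h. At an adjusted p under 0.05, 1 of the 31 members changed after 1 of the 6 drugs: Neurod2 was higher after mianserin (all genes tested: 0.343% higher and 0.324% lower after mianserin). No member passed as higher or lower after haloperidol (0.124% and 0.0378% of all genes), risperidone (0.284% and 0.227%), methamphetamine (0.27% and 0.081%), venlafaxine (0.0027% and 0.0027%) or ketamine (0.0135% and 0.0027%). The limma test at an unadjusted p under 0.05 gave 9, 6, 4, 3 and 0 members for these 5 drugs and 7 for mianserin, against 13.8%, 14.5%, 8.88%, 7.16%, 8.14% and 9.61% of all genes. As a share of the 31 members the counts were above the background for every drug but ketamine, which was below it. For haloperidol and venlafaxine this did not hold against saline of the own set, where risperidone, methamphetamine and mianserin stayed above, with counts given below. These shares were not tested.

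Neurod2 had 12.8, 10.2, 11.5 and 8.94 FPKM after mianserin. The 8 saline libraries had 6.45 at the lowest, 8.14 at the median and 8.83 at the highest, so that the 4 mianserin libraries lay above all of them, the lowest by a narrow margin. The difference was 0.40 on the log2 scale (SE 0.0813, limma adjusted p = 0.0107, two-sided exact permutation p = 0.00202, the smallest that 4 against 8 libraries allow). Against the 4 saline libraries of its own set it was 0.36 (SE 0.0938, limma adjusted p = 0.0418, exact permutation p = 0.0286, the smallest that 4 against 4 libraries allow), and 0.54% of all genes were higher and 1.47% lower in that comparison. Without mianserin replicate 1 the adjusted p was 0.0955 (difference 0.32) and without replicate 3 it was 0.0708 (difference 0.37), so the call rests on each of these libraries. In the NAc, Neurod2 differed by 0.03 after mianserin (limma adjusted p = 0.957), and against all saline no member passed the test of a difference between the tissues in the effect of mianserin (0.119% of all genes), haloperidol (0.0405%), risperidone (0%), methamphetamine (0%), venlafaxine (0.0513%) or ketamine (0.313%). Against saline of the own set 1 member passed, Slc17a7 for ketamine (2.02% of all genes), described with the NAc values below, and none for mianserin (0.24%), haloperidol (0.0081%), risperidone (0%), methamphetamine (0%) or venlafaxine (0.146%).

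Neurod2 also lay above every saline library of the PFCx after risperidone and venlafaxine. It had 10.1, 9.26, 9.84 and 9.74 FPKM after risperidone (difference 0.27, SE 0.0813, limma adjusted p = 0.123, exact permutation p = 0.00404) and 10.8, 9.98, 9.48 and 10.9 after venlafaxine (difference 0.34, limma adjusted p = 0.262, exact permutation p = 0.00202). Of all genes, 1.53% had no overlap with saline after risperidone, 1.35% after mianserin and 0.597% after venlafaxine. No member was without overlap after haloperidol (1.11%), methamphetamine (0.967%) or ketamine (0.748%). All these comparisons share the 8 saline libraries. Against saline of the own set the Neurod2 difference was 0.31 after risperidone (limma adjusted p = 0.320) and 0.29 after venlafaxine (limma adjusted p = 0.180), again without overlap. The members without overlap with the own set were Neurod2 and Tle4 after risperidone (2 members, 3.99% of all genes), Neurod2, Neurod6 and Emx1 after mianserin (3 members, 7.17%), Neurod2 after venlafaxine (1 member, 6.1%), Neurod1 after methamphetamine (1 member, 3.61%) and 0 after haloperidol (3.25%) and ketamine (7.22%). After haloperidol Neurod2 had 8.85, 8.01, 8.23 and 9.81 FPKM, after ketamine 10.4, 8.07, 9.14 and 7.89, and after methamphetamine 8.77, 7.499, 7.61 and 8.72, all overlapping saline. Neurod2 was the member with the lowest p for risperidone, mianserin, venlafaxine and ketamine (ketamine difference 0.14, limma adjusted p = 0.676).

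For haloperidol the member with the lowest p was Camk2a, with 209 to 237 FPKM in the 4 libraries against 153 to 225 in saline. The ranges overlapped, and the difference of 0.24 did not pass (SE 0.0761, limma adjusted p = 0.154, and 0.847 against saline of its own set). For methamphetamine it was Etv1, with 7.80 to 11.99 FPKM against 9.61 to 14.8 in saline. Again the ranges overlapped, with a difference of -0.27 (SE 0.0991, limma adjusted p = 0.384, and 0.822 against saline of its own set). Calb1 after mianserin came next to the threshold: it had 8.64, 8.75, 9.91 and 11.6 FPKM, a difference of -0.36 with an adjusted p of 0.0751 (limma), and of -0.29 with an adjusted p of 0.177 against saline of its own set.

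The test over all 6 drugs at once called Neurod2 (limma F, adjusted p = 0.0145) and Pcp4 (adjusted p = 0.0235), 2 of 31 members where 3.34% of all genes passed. Against saline of the own set it called 0 members (1.45% of all genes), with adjusted p = 0.0648 for Neurod2 and 0.539 for Pcp4. With the own set no member passed after haloperidol (0.0135% of all genes higher and 0.0081% lower), risperidone (0.122% and 0.0405%), methamphetamine (0.135% and 0.0243%), venlafaxine (0.0324% and 0.707%) or ketamine (0.265% and 1.24%). At an unadjusted p under 0.05 it gave 1 member for haloperidol (5.95% of all genes), 4 for risperidone (6.21%), 5 for methamphetamine (5.99%), 7 for mianserin (13.1%), 1 for venlafaxine (9.45%) and 0 for ketamine (13%). These own-set fits had no block for the replicate number. With such a block, Neurod2 passed after venlafaxine (limma adjusted p = 0.0368) and over all 6 drugs (limma F, adjusted p = 0.00705). Pcp4 was split by sample set. It had 25.7, 25.7, 27.5 and 35.2 FPKM after haloperidol, 22.5, 16.99, 20.9 and 30.1 after risperidone and 26.7, 28.9, 22.5 and 21.1 after methamphetamine, near saline I. After mianserin it had 12.5, 14.8, 13.5 and 16.3, after venlafaxine 11.3, 11.6, 8.41 and 13.2, and after ketamine 16.9, 16.5, 16.4 and 10.6, near saline II. Its differences from all saline ran from -0.61 (venlafaxine) to 0.68 (haloperidol), and from own-set saline from -0.21 to 0.34.

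**Figure D4:**
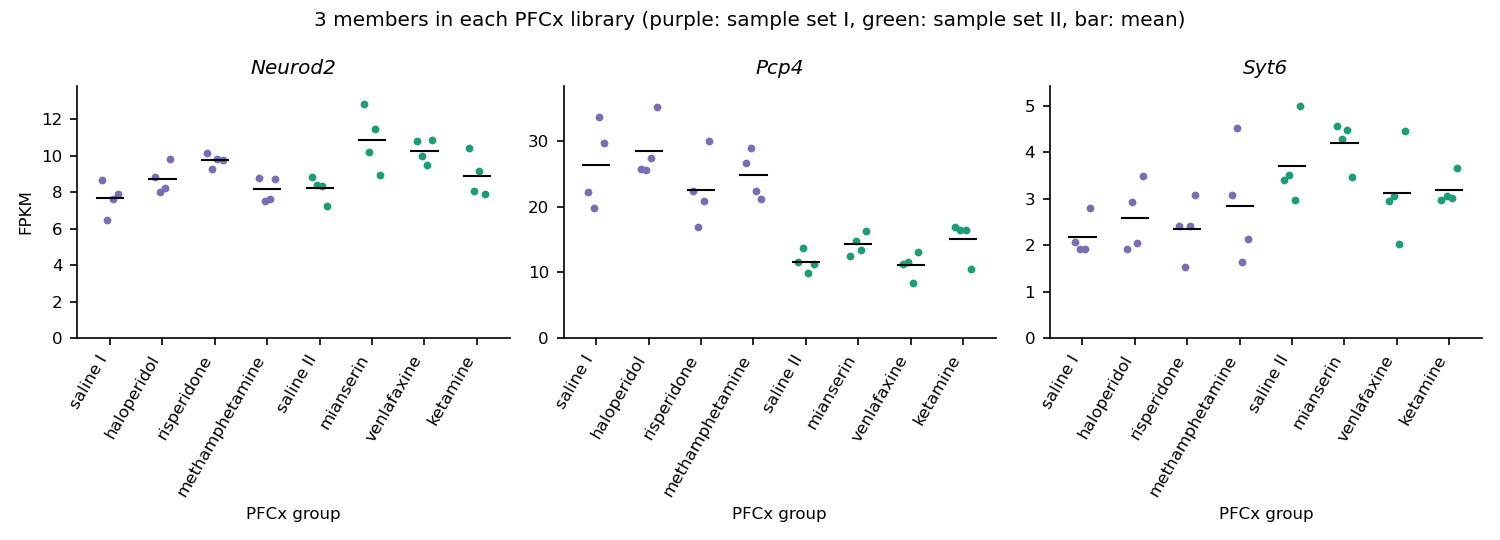
FPKM of Neurod2, Pcp4 and Syt6 in each PFCx library by group, with 1 point per library, purple for sample set I, green for sample set II and a bar at the mean. The 4 mianserin libraries of Neurod2 (8.94 to 12.8) lie above all 8 saline libraries, and Pcp4 is higher in every library of set I (16.99 to 35.2) than in set II (8.41 to 16.9).

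**Figure D5:**
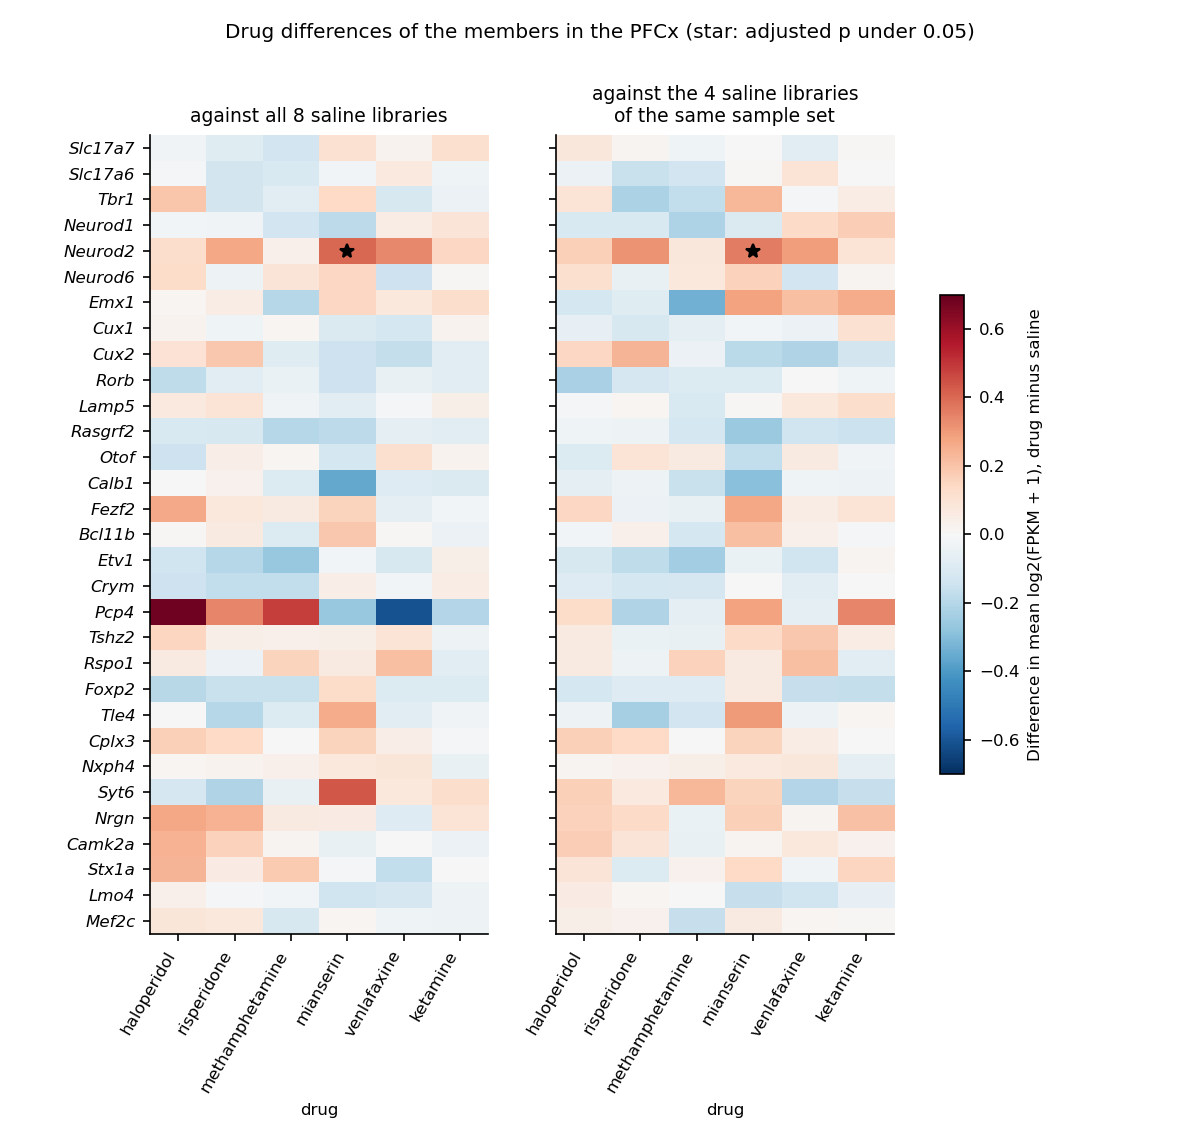
Difference in mean log2(FPKM + 1), drug minus saline, of the 31 members in the PFCx for 6 drugs, against all 8 saline libraries (left) and against the 4 saline libraries of the same sample set (right). A star marks an adjusted p under 0.05, which only Neurod2 after mianserin reached in both panels, and the Pcp4 row spans -0.61 to 0.68 on the left and -0.21 to 0.34 on the right.

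In the NAc the test over all 6 drugs called 11 members against all saline, where 36.9% of all genes passed, and 0 against saline of the own set (1.63%). Single drugs gave 3 calls against all saline. Pcp4 and Lmo4 were lower after venlafaxine (2 members, where 0.729% of all genes were lower), and Rorb was higher after ketamine (1 member, where 1.43% were higher and 0.54% lower). No member was higher after venlafaxine (1.1%), and none passed after haloperidol (0.527% higher, 0.194% lower), risperidone (0.446% and 0.284%), methamphetamine (0.162% and 0.0324%) or mianserin (1.43% and 0.41%). Rorb had 3.36, 3.39, 3.57 and 3.05 FPKM after ketamine and 2.46 to 2.82 in saline, with no overlap (difference 0.26, SE 0.0558, limma adjusted p = 0.0177). Against saline of the own set none of the 3 passed, with adjusted p = 0.886 for Pcp4, 0.782 for Lmo4 and 0.0648 for Rorb. Slc17a7 after ketamine had 58.5, 43.6, 48.9 and 33.0 FPKM in the NAc, all above the 4 saline II libraries (15.4 to 32.6) and overlapping saline I (38.3 to 53.6). Its difference from saline of the own set was 0.95 (SE 0.246, limma adjusted p = 0.0585) and from all saline 0.46 (adjusted p = 0.318). The ketamine effect on Slc17a7 in the PFCx minus that in the NAc was -0.95 against saline of the own set (SE 0.267, limma interaction, adjusted p = 0.0459) and -0.35 against all saline (adjusted p = 0.533). The summed medium spiny neuron list was at 72.1%, 91.2%, 84.0% and 101% of its mean NAc saline level in the NAc ketamine libraries. In the NAc saline II libraries it was at 85.5%, 97.4%, 95.1% and 113%. The part of this in the Slc17a7 differences was not tested.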

How the data were processed

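The authors sequenced ribo-depleted RNA of 64 samples as single-end reads on the Ion Proton, aligned them with TopHat2 2.0.1 and then Tmap to GRCm38 (mm10), and estimated transcript levels with Cufflinks 2.2.1 and the Ensembl annotation. The deposited values are FPKM per transcript in 1 table per library, and the deposited coverage column is the estimated read depth per base, a signal not scaled to the library. The tables hold no read counts, so no counting interval is given. How reads that match several places were handled is not given in the sources used here.

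FPKM was summed over the transcripts of a gene. Genes with a mean of at least 0.1 FPKM in either tissue (37034) were tested on log2(FPKM + 1) with limma 3.58.1 in R 4.3.3, without a mean-variance trend, with Benjamini-Hochberg adjustment over all of them and a threshold of 0.05. A difference on this scale understates the change of low genes. The tissue fit used the 16 saline libraries, the drug fits the 32 libraries of a tissue. For single values, an exact permutation test (two-sided) of the difference in means was run in Python 3.11.15 with numpy 2.4.6. The aligned bases of a library were taken from its coverage divided by FPKM, as a median over long transcripts (2000 bases or more) with 5 FPKM or more. Replicates are separate libraries. Since the labels do not say that they came from separate animals, p-values measure the spread between libraries only.

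The fits were tested on simulated data first. There the tissue fit called 69% of genes moved by 0.5 on the log2 scale and 93% of those moved by 1, with 5 false calls. The PFCx fit of mianserin against all saline called 58% and 93%, with 15 false calls. A drug difference of 0.5 or less can therefore be missed. The members, gene lists and sample sets were chosen with earlier results of these data known. All members are named for the tissue difference. Given in full are, per role, the most abundant and the most different member, every member lower in the PFCx, every member called for a drug in the PFCx, and the member with the lowest p for each drug. Bhlhe22, Ldb2, Lmo3, Nr4a2, Calb1 after mianserin and the NAc drug values were chosen after their values were seen. Gene positions are GENCODE vM21 bounds, promoters are from RefSeq. Alternatives were another pseudocount, filter, scaling, trend, transcript choice, saline set or control, a replicate block and leaving out each library. 1 gene of the other cortical list is not reported here by name.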

Additional observations from a re-analysis of the deposited data

Results flagged for a closer look

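Of 48 tests for a value far from the others within a group of saline or drug libraries, 3 found one. At 1 in 20, chance gives about 2.4, so the number found was near that. Neurod6 was at 1.21 FPKM in the NAc saline II replicate 4 library, and the other 7 NAc saline libraries were at 2.25 to 2.90. Rspo1 was at 1.35 FPKM in the same library, against 0.570 to 0.807 in the other 7. The summed medium spiny neuron list was at 170 FPKM in the PFCx saline II replicate 4 library, against 85.9 to 122 in the other 7.

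The tissue difference of Slc17a7 was larger in saline II than in saline I, by 1.20 on the log2 scale (limma interaction, adjusted p = 0.0131). Its PFCx level was 111 FPKM or more in all 8 saline libraries, and the sets were apart in the NAc.

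Against saline of the own set, the effect of ketamine on Slc17a7 differed between the tissues, by -0.95 on the log2 scale for the PFCx minus the NAc (limma interaction, adjusted p = 0.0459). It was -0.35 against all saline (adjusted p = 0.533), and the saline II libraries of the NAc that serve as its control were lower in Slc17a7 than those of saline I. The medium spiny neuron signal of the NAc ketamine and saline II libraries is given with the NAc drug values, and its part was not tested.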

How the results depend on the processing

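Of the 30 members with a call, 21 kept its direction and the call under all 12 alternatives and all 16 fits without 1 library. Otof had no call in any of them, and its difference lay on both sides of 0 (-0.24 to 0.03). Of the other 9, Foxp2 turned from -1.10 to 0.32 (adjusted p = 0.126) when only its highest transcript, of 352 bases, stood for the gene. Calb1, Slc17a6, Tshz2, Cux1, Lamp5, Rspo1, Cplx3 and Nxph4 kept their direction and lost the call under at least 1 setting. The number of members higher by at least 1 was 10 to 14 and the number lower 3 to 5, and without 1 library 12 to 13 and 4. A pseudocount of 0.1 raised the median difference of all genes from 0.10 to 0.34. The fit without the PFCx saline II replicate 4 library was added after seeing the data.

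The number of members called in the PFCx depended on the control. With saline I alone it was 4 for mianserin, 3 for venlafaxine and 1 for ketamine, and with saline II alone 4 for haloperidol, 1 for risperidone and 3 for methamphetamine. The test over all drugs called 0 members with own-set saline and 4 after rescaling to the same sum of FPKM, where venlafaxine called 1. Mianserin called 2 with the highest transcript of each gene. Without 1 library, mianserin called 0 to 2 members and the test over all drugs 1 to 3. No share of all genes is set beside these counts, so they show only how the number called depends on the setting. The cause of these shifts was not tested.

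Over PFCx drug and own-set saline libraries, deviations of libraries with the same replicate number had a mean correlation of 0.23 (17 of 24 pairs over 0.1, lowest -0.11), against -0.07 for different numbers (19 of 72 over 0.1), and 17 of the 24 drug libraries correlated best with their own number. All 4 pairs passed 0.1 for haloperidol and for methamphetamine, 3 for risperidone and 2 each for mianserin, venlafaxine and ketamine. Over NAc and PFCx saline the mean was -0.09 (0 of 8 pairs). The main fits did not use the numbers, either between the tissues or within the PFCx, although PFCx libraries tended to correlate by number. With own-set saline, calls of Neurod2 depend on this choice, as given next. With the replicate block, 13 members were higher and 4 lower between tissues, 1 changed after mianserin and 2 over all drugs. With own-set saline and the replicate block, haloperidol and methamphetamine called 0 members, and Neurod2 was called after mianserin (adjusted p = 0.00542), after venlafaxine (1 member, adjusted p = 0.0368) and over all drugs (1 member, adjusted p = 0.00705). The counts with the block also have no share of all genes beside them.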
